A study of Mus musculus with 26 samples.

Results

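The mRNA of 10 cytokine genes of CD8+ T cells was followed in TCRTg101, CD8+ T cells whose transgenic receptor recognizes an antigen of C1498, a mouse acute myeloid leukemia line. The genes were a chosen list (Ifng, Il2, Tnf, Il10, Il21, Csf2, Lta, Ltb, Csf1 and Lif), 10 of the 35944 genes with a transcript in the tables, and 9 of them were among the 15465 genes with enough counts to test. Il21 was the member left out, because only 4 libraries held 10 or more of its counts. Il10 and Csf2 passed with exactly the 6 libraries that the filter asked for, so their pass came largely from the groups in which they were high. Il2 and Lif passed with 8 and 10 libraries, none of them a control. Counts of called members below therefore lean on a filter that the high groups of these genes helped them pass.

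The question behind the series was how TCRTg101 change while leukemia grows in the liver, and RNA was sequenced from cells sorted by flow cytometry after adoptive transfer. All samples carry the labels C57BL/6, 6 weeks of age and wild type. The cells nevertheless bear the receptor transgene, and the study's methods place that transgene on a Rag2-/- background and name C57BL/6 mice or mice congenic to them as recipients. The control group had 3 spleen libraries, of which 2 came from naive cells at day 0 (libraries 1 and 2) and 1 from mice without leukemia at day 18 (library 3). The undivided group was 1 spleen library of cells from leukemia-bearing mice at day 18 that had kept their CellTrace Violet dye, and so had not divided. The remaining libraries also came from leukemia-bearing mice. They were 2 early spleen and 2 early liver libraries at day 7, 1 mid spleen library at day 14, 3 mid liver libraries at days 13, 13 and 14, and late liver libraries 1 at day 18 and 2 at day 16. Liver and leukemia therefore changed together in every comparison of liver with control libraries and cannot be told apart there. A library made with oligo-dT priming from day 0 cells was left out of all comparisons. The labels do not say whether libraries of one group came from separate mice, so p-values measure only the spread between these libraries.

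Cytokines are secreted proteins through which T cells act on other cells. Effector CD8+ T cells make interferon gamma and tumor necrosis factor, and briefly after antigen contact the growth factor interleukin 2. Many cytokine transcripts are short lived, because AU-rich elements in their 3′ untranslated regions, built from the pentamer AUUUA, recruit proteins that start their decay. Transcription of many of these genes after engagement of the T cell receptor depends on factors of the NFAT, AP-1 and NF-kB families.

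The 3′ untranslated region separated one member from the rest. The pentamer, ATTTA in DNA letters and read on the transcript's strand only, was present 3 to 9 times in each of the other 9 members and 0 times in the 156 bases of Ltb. Among tested genes with an annotated 3′ untranslated region (13715 genes, GENCODE vM21 on GRCm38), 61.8% held it at least once. The median region of those genes had 823 bases, so that of Ltb was short, and the part of length in its 0 was not tested. At least 3 pentamers in one stretch of 30 bases were found in 5 members, Ifng, Il2, Tnf, Csf2 and Lif, against 2.09% of those genes. The longer TATTTAT, which contains ATTTA, was in 9 of 10 members against 25.3%. The densest stretches of these 5 members are shown because they are the part of the transcript that these genes share, with the pentamers in capitals.
Ifng 3′ untranslated region, chr10:118445330-118445359 (forward strand): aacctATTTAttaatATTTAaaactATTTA
Il2 3′ untranslated region, chr3:37121040-37121069 (reverse strand): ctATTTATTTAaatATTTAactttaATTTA
Tnf 3′ untranslated region, chr17:35199679-35199708 (reverse strand): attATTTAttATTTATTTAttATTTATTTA
Csf2 3′ untranslated region, chr11:54247329-54247358 (reverse strand): tttttaaatATTTATTTATTTATTTATTTA
Lif 3′ untranslated region, chr11:4272414-4272443 (forward strand): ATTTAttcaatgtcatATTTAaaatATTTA
In all, 5 such pentamers stood in the stretch of Tnf and in that of Csf2, and Csf2 had the highest density of all members, at 28.4 per kilobase against a median of 1.11 per kilobase over the tested genes. The matches are descriptions of letters, not of bound proteins.

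Promoter sequences were at hand for 9 members (RefSeq, GRCm38.p6; Il10 had no entry) and were searched on both strands over the 250 bases before the start site. GGAAA, the core of the letters that NFAT binds, occurred in 9 of 9 members and in 55.7% of 32536 promoters, and at least 2 copies stood in 6 of 9 members against 21.5%. TGANTCA, the AP-1 letters, occurred in Lif alone of the members (6.73% of promoters). TATAAA occurred in Ifng, Il2, Tnf and Lta (12.3%). A 10-letter NF-kB pattern occurred in Ltb and Csf1 (1.40%), where it overlaps a GGAAA on the other strand and has the same 10 letters in both genes. The promoters of Ifng and Il2, both called higher in mid and late liver, and of Ltb, which was not called, and Csf1, which rose, are shown with these matches in capitals. Bases inside the GENCODE gene were left out.
Ifng promoter, chr10:118440796-118441045 (forward strand): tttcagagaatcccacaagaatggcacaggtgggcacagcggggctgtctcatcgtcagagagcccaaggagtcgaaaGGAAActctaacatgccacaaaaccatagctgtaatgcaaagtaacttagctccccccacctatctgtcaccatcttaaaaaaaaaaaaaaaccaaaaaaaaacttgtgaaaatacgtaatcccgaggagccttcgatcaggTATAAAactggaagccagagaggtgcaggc
Il2 promoter, chr3:37125960-37126204 (reverse strand): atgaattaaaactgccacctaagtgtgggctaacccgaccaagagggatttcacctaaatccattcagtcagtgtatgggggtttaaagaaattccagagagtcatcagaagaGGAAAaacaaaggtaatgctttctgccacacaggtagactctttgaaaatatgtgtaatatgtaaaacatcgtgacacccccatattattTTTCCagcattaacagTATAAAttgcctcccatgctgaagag
Ltb promoter, chr17:35194257-35194438 (forward strand): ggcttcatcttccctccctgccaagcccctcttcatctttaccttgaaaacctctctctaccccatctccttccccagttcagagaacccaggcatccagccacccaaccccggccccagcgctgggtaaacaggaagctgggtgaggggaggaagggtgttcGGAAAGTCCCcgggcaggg
Csf1 promoter, chr3:107760470-107760719 (reverse strand): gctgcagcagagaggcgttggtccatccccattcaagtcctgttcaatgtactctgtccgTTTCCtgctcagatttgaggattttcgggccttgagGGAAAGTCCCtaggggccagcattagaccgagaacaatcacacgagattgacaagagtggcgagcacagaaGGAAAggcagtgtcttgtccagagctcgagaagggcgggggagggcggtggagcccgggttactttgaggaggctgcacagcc
On this build Ltb, Tnf and Lta lie beside each other on chromosome 17, with 3060 bases between Ltb and Tnf and 1157 between Tnf and Lta. Il2 and Il21 are 96799 bases apart on chromosome 3.

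Libraries held 22691255 to 70719703 estimated counts in total per library. Levels are given as counts per 1000000 of that total (CPM). The 5 CD8 T cell markers (Cd3e, Cd3d, Cd3g, Cd8a and Cd8b1) summed to 2810 to 5410 CPM in the 14 libraries. Markers of other cells were unevenly spread. The 7 myeloid and leukemia cell markers summed to 11.5 to 497 CPM in controls, 11.8 to 32.9 in mid liver and 23.2 to 35.8 in late liver, and control library 1 was the highest. The 5 Kupffer cell markers summed to 1.68 to 350 CPM in controls, 0.532 to 3.83 in mid liver and 4.20 to 4.39 in late liver. The controls were spleen libraries, so these genes were not particular to cells of the liver. The 5 hepatocyte markers summed to 0.200 to 0.356 CPM in controls, 2.21 to 131 in mid liver and 50.9 to 190 in late liver, and the defining gene Alb reached 95.2 CPM in late liver library 1. The 3 erythroid markers reached 10400 CPM in control library 2. The B cell markers summed to 11.4 to 36.0 CPM over all libraries, and Cd4 and the NK cell gene Ncr1 stayed at or under 5.49 and 2.04 CPM, with Ncr1 at 0 in the undivided, mid spleen and early liver libraries. The part of these cells in the results below was not tested, and in bulk RNA fewer cells making a transcript cannot be told apart from less transcript per cell.

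In mid liver libraries 7 of the 9 tested members were higher than in controls, where 17.5% of all tested genes were (edgeR's quasi-likelihood test, Benjamini-Hochberg adjusted p under 0.05). The 7 were Ifng, Il2, Tnf, Csf2, Lta, Csf1 and Lif. In late liver libraries 6 of the 9 were higher, against 19.9% of all genes, and these were Ifng, Il2, Il10, Csf2, Csf1 and Lif. None of the 9 was called lower at either time, where 11.8% and 14.3% of all genes were. By plain CPM, 8 of the 9 lay above every control in all mid liver libraries and 7 in both late liver libraries, as did 16.2% and 20.2% of all genes. The median log2 fold change of the 9 was 3.03 at the mid and 4.72 at the late time point, beside medians of -0.07 and -0.04 over all genes. The calls rested on few libraries. Leaving out control library 1, control library 2, mid liver library 1 or mid liver library 3 left 0 members called at the mid time point, with 0 to 33 genes of the whole table. Leaving out late liver library 2 left 0 members and 0 genes at the late time point, and leaving out control library 1, control library 2 or late liver library 1 left 3 members there (Csf2, Csf1 and Lif), with 1307, 3634 and 674 genes of the whole table (8.45%, 23.5% and 4.36%).

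**Figure D1:**
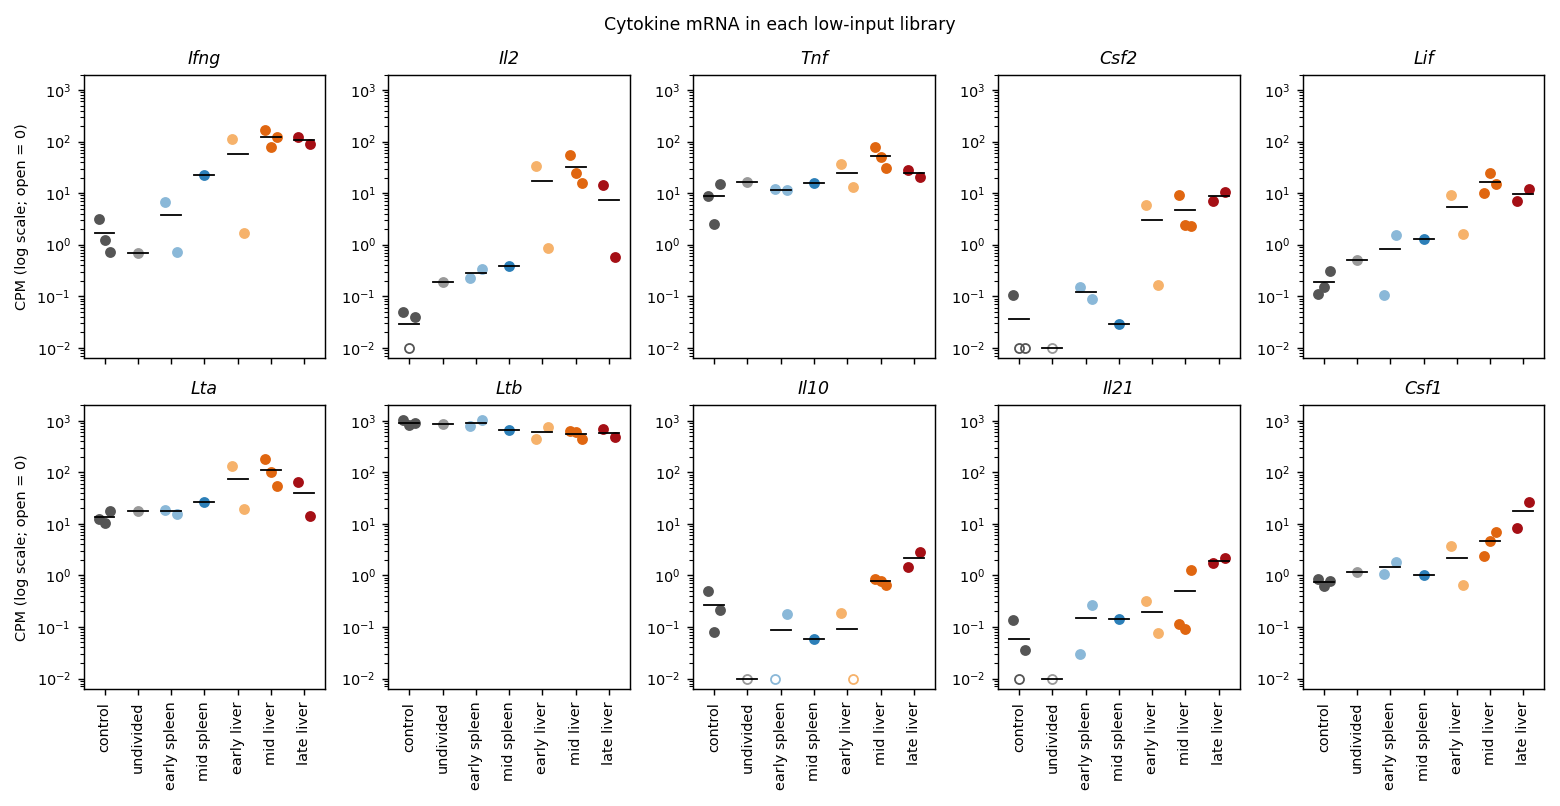
Each panel plots 1 cytokine gene, with CPM on a log axis and the 7 groups on the horizontal axis. Points are single libraries, bars are group means, and open circles at the bottom are libraries at 0. Ifng lay at 79.6 to 165 CPM in the mid liver libraries and at 0.713 to 3.15 CPM in the controls, while Ltb lay above every other member in all 14 libraries.

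Ifng (ENSMUSG00000055170.4, chr10:118441046-118445892, forward strand) encodes interferon gamma, which activates macrophages and raises antigen presentation. Its level was 3.15, 1.25 and 0.713 CPM in control libraries 1 to 3, 165, 79.6 and 121 CPM in mid liver libraries 1 to 3, and 121 and 89.2 CPM in the late liver libraries. Both liver groups lay above every control, and the late libraries lay inside the range of the mid ones. Ifng rose by a log2 fold change of 6.49 ± 1.49 (SE) at the mid time point (edgeR adjusted p = 0.0191) and by 6.24 ± 1.51 at the late time point (edgeR adjusted p = 0.0183). Without control library 3 or with day 0 controls alone, the call was lost at both times, with adjusted p up to 0.0863 and 0.0952 over all libraries left out and log2 fold changes of at least 6.23 and 5.99. Its mean stood at 121.9 ± 42.5 CPM (SD, n = 3) in mid liver and 105.3 ± 22.9 CPM (n = 2) in late liver.

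Tnf (ENSMUSG00000024401.14, chr17:35199381-35202007, reverse strand) encodes tumor necrosis factor, an inflammatory cytokine that can also kill cells. Controls held 8.80, 2.55 and 14.97 CPM, mid liver libraries 77.5, 49.2 and 30.5 CPM, and late liver libraries 28.7 and 20.8 CPM. By plain CPM both liver groups lay above every control, yet the late libraries were both below the lowest mid liver library. With the library scaling of the test (TMM), late liver library 1, which had the lowest factor (0.723), lay inside the mid liver range. Late liver library 2 stayed below that range. The rise passed the test at the mid time point (log2 fold change 2.73 ± 0.64, edgeR adjusted p = 0.0185) and not at the late one (1.70 ± 0.68, edgeR adjusted p = 0.0801). DESeq2 called the late difference, and so did edgeR without control library 3 or without the filter on low counts.

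Il2 (ENSMUSG00000027720.7, chr3:37120523-37125959, reverse strand) encodes the main autocrine growth factor of T cells. It was almost absent from controls, with 4 counts in the 3 libraries together. Mid liver libraries held 55.9, 24.7 and 15.9 CPM. Late liver library 1 held 14.3 CPM, just under the lowest mid liver library by plain CPM. With TMM scaling (factor 0.723) that late library lay inside the mid liver range. Late liver library 2 held 0.577 CPM, far below the mid liver libraries and still above the controls. Over pooled counts the level was 1420 times that of controls in mid liver (95% exact interval 556 to 5230) and 330 times in late liver (128 to 1210). These intervals cover counting error only, since reads without molecular identifiers are not independent molecules. The fitted log2 fold changes were 11.06 ± 1.88 (edgeR adjusted p = 0.0135) and 7.68 ± 1.96 (edgeR adjusted p = 0.0216), and with 1 control at 0 they depend on the prior count.

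Csf2 (ENSMUSG00000018916.5, chr11:54247271-54249667, reverse strand) encodes GM-CSF, a growth and activating factor for granulocytes and macrophages. Control library 1 held 0.108 CPM and the other 2 controls held 0. Mid liver libraries held 9.18, 2.41 and 2.28 CPM and late liver libraries 6.89 and 10.7 CPM. No liver library of these times overlapped the controls, and the 2 liver groups overlapped each other. Pooled counts were 125 times those of controls in mid liver (95% exact interval 60.3 to 311) and 169 times in late liver (81.6 to 422). The rise passed the test at both times (edgeR adjusted p = 0.0143 and 0.00681).

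Lif (ENSMUSG00000034394.14, chr11:4257557-4272514, forward strand) encodes leukemia inhibitory factor, a cytokine of the interleukin 6 family that signals through Lifr and Il6st. Controls held 0.112, 0.154 and 0.305 CPM. Mid liver libraries held 9.95, 24.4 and 14.7 CPM and late liver libraries 7.04 and 11.8 CPM. All 5 liver libraries of these times were above every control and the 2 groups overlapped. Lif rose by 6.61 ± 1.02 on the log2 scale in mid liver (edgeR adjusted p = 0.0116) and by 6.10 ± 1.04 in late liver (edgeR adjusted p = 0.00593). Lif-202, a second transcript of the gene, took 0% of its counts in the 3 controls, 7.3% to 38.4% in mid liver and 27.1% to 38.2% in late liver, although few Lif counts lay behind the control shares.

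Lta (ENSMUSG00000024402.5, chr17:35203165-35205351, reverse strand) encodes lymphotoxin alpha, which acts as a soluble homotrimer or on the cell surface together with lymphotoxin beta. Controls held 12.2, 10.6 and 17.9 CPM, mid liver libraries 181, 102 and 55.3 CPM, and late liver libraries 65.6 and 14.5 CPM. Mid liver libraries were all above controls, whereas late liver library 2 lay inside the control range. Lta rose at the mid time point (log2 fold change 3.03 ± 0.78, edgeR adjusted p = 0.0250), a call that was also lost without mid liver library 2. At the late time point the log2 fold change was 1.36 ± 0.88 (edgeR adjusted p = 0.251).

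Ltb (ENSMUSG00000024399.5, chr17:35194439-35196320, forward strand) encodes lymphotoxin beta, the membrane anchor of that surface complex, and is made by resting lymphocytes. It was the only member with a fitted fold change below 0 at both times. Controls held 1016, 848 and 889 CPM, mid liver libraries 637, 605 and 448 CPM, and late liver libraries 683 and 482 CPM. By plain CPM every mid and late liver library was below every control, as were 27.7% and 36.5% of all genes. With TMM scaling the mid liver libraries stayed below every control. Late liver library 1 (factor 0.723) then lay above control libraries 2 and 3 (factors 1.03 and 1.10). The log2 fold changes of -0.50 ± 0.23 (edgeR adjusted p = 0.117) and -0.41 ± 0.26 (edgeR adjusted p = 0.239) did not pass the test. The mid difference passed it without early liver library 1, without early liver library 2, or in a fit of mid liver and control libraries alone (lowest adjusted p 0.0468).

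Il10 (ENSMUSG00000016529.5, chr1:131019845-131024974, forward strand) encodes interleukin 10, which restrains inflammatory responses. It was scarce throughout, at 0.492, 0.0808 and 0.214 CPM in controls, 0.863, 0.781 and 0.657 CPM in mid liver, and 1.43 and 2.88 CPM in late liver. The 3 groups did not overlap and stood in that order. The late difference passed the test (log2 fold change 3.42 ± 1.06, edgeR adjusted p = 0.0326) and the mid one did not (1.86 ± 0.98, edgeR adjusted p = 0.167). The late call was lost without any one of the controls, either late liver library or mid liver library 3 (adjusted p up to 0.248), with day 0 controls alone and without a term for the series. Control library 1, the highest in Il10 among controls, was also the highest in myeloid markers, whose part in its level was not tested.

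Il21 (ENSMUSG00000027718.8, chr3:37222759-37232636, reverse strand) encodes interleukin 21, a cytokine known mainly from CD4+ helper T cells that sustains CD8+ T cells in chronic infection. Controls held 0.139, 0 and 0.0359 CPM, and 10 counts in all. Mid liver libraries held 0.114, 0.0895 and 1.28 CPM and late liver libraries 1.71 and 2.17 CPM. The late pair was above all other libraries, and mid liver library 3, the only mid liver library of day 14, stood apart from the other mid liver libraries. Pooled late counts were 26.8 times those of controls (95% exact interval 14.2 to 56.7). Without the filter on low counts, Il21 had a late log2 fold change of 5.25 ± 1.05 (edgeR adjusted p = 9.8e-06) and a mid one of 3.15 ± 1.05 (edgeR adjusted p = 0.0193). Mid liver libraries 1 and 2 lay inside the control range, so the mid value rests on library 3. The fit without the filter also called more in other comparisons, with 7 members in place of 0 for mid liver versus mid spleen. Its adjusted p-values are therefore not on a par with those of the tested members.

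Csf1 (ENSMUSG00000014599.10, chr3:107741048-107760469, reverse strand) encodes M-CSF, the growth factor of macrophages, whose receptor is Csf1r. Controls held 0.861, 0.626 and 0.784 CPM, mid liver libraries 2.36, 4.62 and 7.12 CPM, and late liver libraries 8.23 and 27.1 CPM. The groups did not overlap and stood in that order, and late liver library 2 was the highest of all 14 libraries. Csf1 rose by 2.67 ± 0.62 on the log2 scale at the mid time point (edgeR adjusted p = 0.0162) and by 4.72 ± 0.69 at the late one (edgeR adjusted p = 0.00429). Its counts were split over 7 annotated transcripts, of which Csf1-201 and Csf1-202 took most in nearly all libraries.

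**Figure D2:**
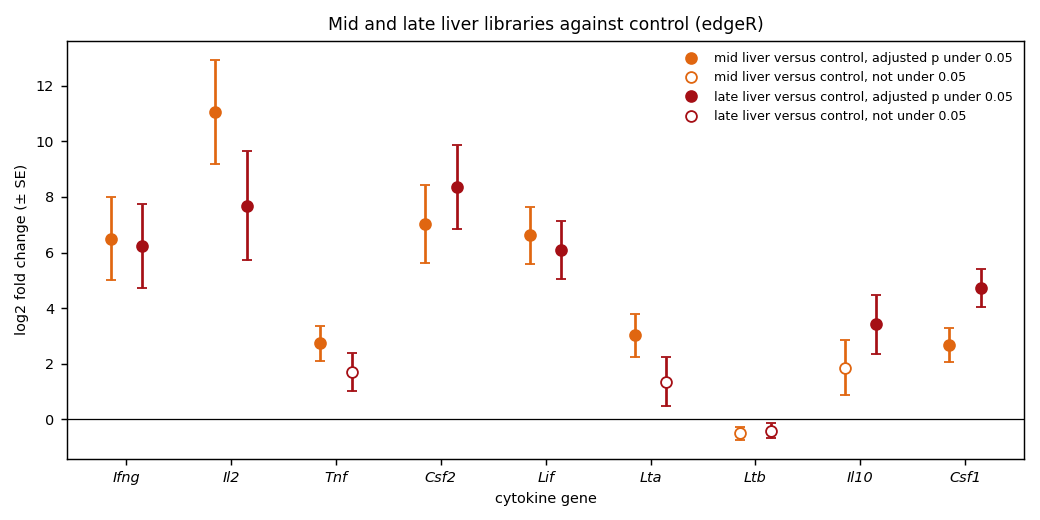
The vertical axis gives the log2 fold change against control with its standard error for the 9 tested members, in mid liver and late liver, and filled circles have an adjusted p under 0.05. Il2, Csf2, Lif and Ifng had fold changes above 6 at both times, and Ltb lay below 0 with open circles.

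At day 7 the 2 early liver libraries were far apart. Early liver library 1 held 111 CPM of Ifng, 33.7 of Il2, 130 of Lta, 36.9 of Tnf, 5.89 of Csf2 and 9.14 of Lif, values inside or close to the range of mid liver libraries. Early liver library 2 held 1.67 CPM of Ifng, 0.880 of Il2, 19.5 of Lta, 13.1 of Tnf, 0.167 of Csf2 and 1.61 of Lif, close to controls for Ifng and Tnf. Il10 was at 0.184 and 0 CPM, Csf1 at 3.74 and 0.667 CPM and Ltb at 448 and 754 CPM in these 2 libraries. By plain CPM, Il2, Csf2, Lta and Lif were above every control in both early liver libraries, which 9.3% of all genes were, and Ltb was below every control, which 10.9% were. The early liver group gave 0 calls among the members and 0 among all genes with edgeR (percent called 0). At an unadjusted p under 0.05 there were 6 members (10.8% of all genes), and DESeq2 called 4 members and 409 genes. Without early liver library 2, edgeR called 6 members, Ifng, Il2, Csf2, Lta, Csf1 and Lif, from 1 early library that was assumed to vary like the other groups, beside 1915 of all genes (12.4%).

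Spleen libraries of leukemia-bearing mice held little of most members. Early spleen libraries held 6.81 and 0.705 CPM of Ifng, 0.229 and 0.334 of Il2, 0.103 and 1.57 of Lif, and 0.151 and 0.0893 of Csf2. Ifng and Lif each had 1 of these libraries below all controls and 1 above all controls. The low values rested on few counts, 16 of Ifng against 20 in control library 3, and 3.4 of Lif against 7.3 in control library 1. Both early spleen libraries were above all controls for Il2 and Csf1 (1.06 and 1.81 CPM of Csf1), as they were for 12.9% of all genes. The 9 tested members had 0 calls against control with edgeR (percent called 0), 0 at an unadjusted p under 0.05 (6.29% of all genes) and 0 with DESeq2, which called 14 genes. The median log2 fold change of the members was 0.56 beside 0.01 over all genes.

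The mid spleen library held 22.0 CPM of Ifng, above every control and below every mid liver library. It held 0.393 CPM of Il2, 16.1 of Tnf, 0.0287 of Csf2, 26.8 of Lta, 1.29 of Lif, 1.003 of Csf1 and 0.0573 of Il10. By plain CPM, the 3 mid liver libraries were all above it for Ifng, Il2, Tnf, Il10, Csf2, Lta, Csf1 and Lif, which 19.5% of all genes were. Ltb, at 678 CPM in spleen, was above them, as were 40.6% of all genes. With TMM scaling, mid liver library 1 (factor 0.816) lay above the spleen library (factor 1.06) for Ltb. With 1 spleen library that was assumed to vary like the other groups, edgeR called 0 members of the 1 gene called in the table (percent called 0.00647). At an unadjusted p under 0.05 there were 4 members (Il2, Csf2, Csf1 and Lif) beside 5.81% of all genes, and DESeq2 called 0 members and 17 genes. The fitted log2 differences were 5.46 ± 2.19 for Il2, 6.54 ± 2.43 for Csf2, 4.03 ± 1.45 for Lif and 2.26 ± 1.92 for Ifng, with edgeR adjusted p = 0.711 for the first 3 and 0.727 for Ifng.

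Undivided TCRTg101 from leukemia-bearing mice at day 18 held 0.694 CPM of Ifng, from 20 counts. That was level with the lowest control, library 3, at 0.713 CPM and also 20 counts, and their order turned with TMM scaling. Il10, Il21 and Csf2 were at 0 counts in the undivided library, in a total of 28803748. Against the level that 3 counts would give in that library, late liver libraries were at least 18.9-fold higher for Il10, at least 18.0-fold for Il21 and at least 79.6-fold for Csf2. The undivided library held 16.8 CPM of Tnf and 18.1 of Lta, both just above the control range and Lta above late liver library 2. It held 0.188 CPM of Il2 (5 counts), 1.18 of Csf1, 0.502 of Lif and 863 of Ltb. All 9 members stayed uncalled against it in edgeR (percent called 0, with 0 genes of the table). At an unadjusted p under 0.05 there were 5 members, Ifng, Il10, Csf2, Csf1 and Lif, beside 24.3% of all genes. DESeq2 called 5 members and 1947 genes (12.6%). Without early liver library 1 or 2, edgeR called 5 members beside 2027 or 2025 genes (13.1% in both fits). Tissue differed between these groups as well as division, and the 2 cannot be told apart.

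Between mid and late liver no member passed the test, and the values pointed in different directions. The test called 0 members and 0 genes (edgeR, percent called 0), with 1 member, Csf1, at an unadjusted p under 0.05 beside 4.96% of all genes. DESeq2 called 0 members and 53 genes. Because libraries came from 2 series by their titles (TG and XC), each late library was also set beside the mid liver libraries of its own series. Of the 9 tested members, Il10 and Csf1 were higher late than in every mid liver library of the series in both series, as were 18% of all genes, and so was Il21, which was not tested. The ratio of late to mid was 1.66 in TG and 4.01 in XC for Il10, 14.9 and 3.16 for Il21, and 3.49 and 4.62 for Csf1. Il2, Tnf, Lta and Lif were lower in that sense in both series, as were 26.5% of all genes. For Il2 the ratio was 0.256 in TG and 0.0285 in XC, and for Lta 0.363 and 0.184. Tnf had ratios of 0.371 and 0.521 and Lif of 0.707 and 0.605. Csf2 went in opposite directions, with 0.751 in TG and 4.56 in XC. The ratios of Ifng and Ltb lay near 1, with values of 0.738 and 0.888 for Ifng and 1.07 and 0.916 for Ltb. Each series held 1 late library, so these ratios have no replicate error.

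**Figure D3:**
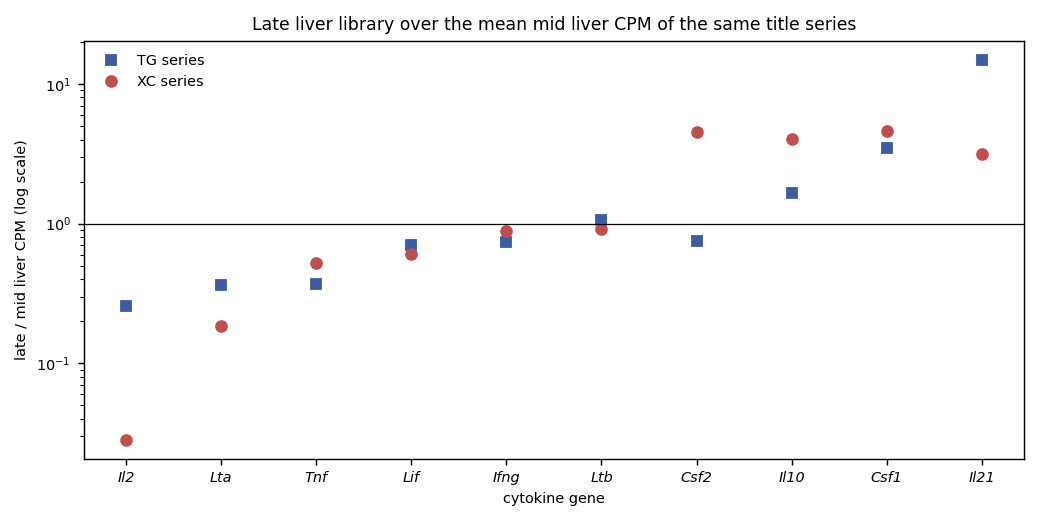
The vertical axis, on a log scale, is the CPM of the late liver library divided by the mean CPM of the mid liver libraries of the same title series, with squares for TG and circles for XC. Il2 lay lowest, at 0.256 and 0.0285, and Il10, Csf1 and Il21 lay above 1 in both series.

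The same series split was applied to the comparisons with control. Mid liver libraries were above the controls of their own series in both TG and XC for Ifng, Il2, Tnf, Il10, Csf2, Lta, Csf1 and Lif, as they were for 23.7% of all genes, and below them for Ltb, as for 39.4%. Late liver libraries were above them in both series for 7 of the 9 tested members, Ifng, Il2, Tnf, Il10, Csf2, Csf1 and Lif, as for 27.8% of all genes, and also for Il21, and below them for Ltb, as for 47% of all genes. TG held 1 library of each group, so within it there is a value and no test.

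Levels of different genes were compared per transcript length, as transcripts per 1000000 transcripts (TPM). In controls Ltb stood first at a mean of 854.5 TPM, followed by Lta at 9.06, Tnf at 4.95, Ifng at 1.32, Csf1 at 0.328 and Il10 at 0.173. Lif, Csf2, Il2 and Il21 were under 0.05 TPM on average. Ranges of neighbours in this order overlapped except between Ltb and Lta and between Ifng and Csf1. In mid liver Ifng was second to Ltb, at 93.4 TPM (range 66.5 to 112), and its range overlapped that of Lta, at 72.9 TPM (40.2 to 103). Tnf and Il2 followed at 28.7 and 25.5 TPM. Their ranges overlapped, and that of Il2 (13.4 to 42.1) also reached into that of Lta. In late liver Ifng was at 73.0 TPM (69.8 to 76.2), clear of Lta at 22.3 TPM (10.1 to 34.5), and Tnf followed at 12.4 TPM. Csf2 and Csf1 came next there, at 9.95 and 5.46 TPM, with Il2 at 5.16 TPM behind them and overlapping ranges. Ltb took 97.5% to 98.8% of the summed TPM of the 10 members in controls, 62.4% to 76.0% in mid liver and 77.6% to 80.6% in late liver.

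**Figure D4:**
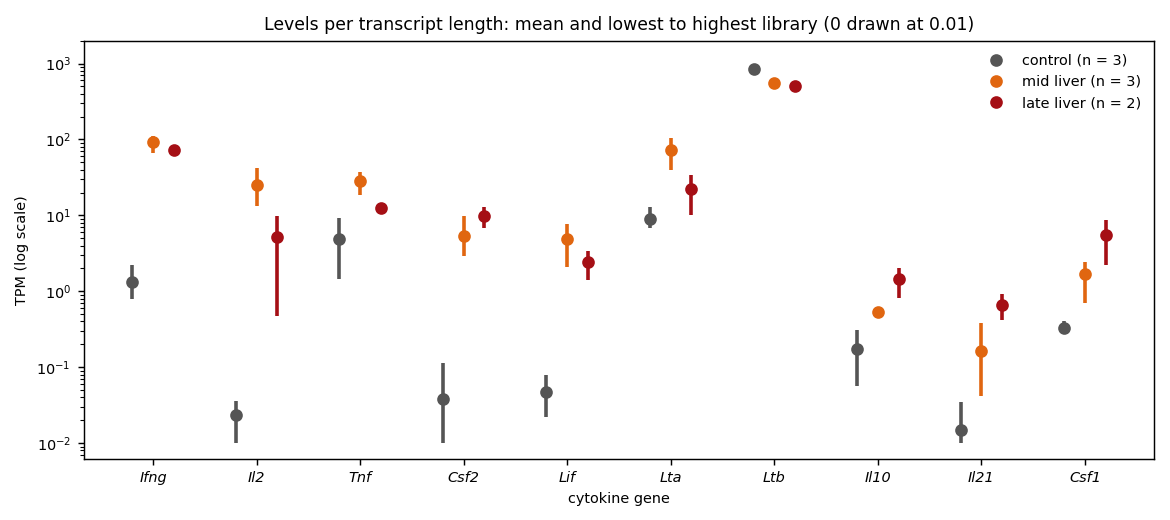
Circles are mean TPM on a log axis for the 10 members in control, mid liver and late liver libraries, and lines run from the lowest to the highest library, with 0 drawn at the foot of the axis. Ltb was highest in the 3 groups, and Ifng went from 1.32 TPM in controls to 93.4 in mid liver.

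Ratios between members, in TPM, also differed between libraries. Ifng was 2.66 to 7.60 times Il2 in the mid liver libraries, 7.73 times in late liver library 1 and 148.5 times in late liver library 2. Lta was 2.19 to 2.76 times Tnf in mid liver, 2.70 times in late liver library 1 and 0.838 times in late liver library 2. Late liver library 2 was outside the mid liver range in both ratios. Late liver library 1 was just above that range for Ifng over Il2, against 2.66 in mid liver library 1 of the same series. For Lta over Tnf it was inside the range, near the upper end.

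Across the 14 libraries, members were set beside all genes with a mean log2 CPM of at least 3 by Pearson's r of log2 CPM, as a description. The libraries share groups, series and composition, so no test was made. Closest to Ifng were Pgd (r = 0.983), Ccnb2 (0.983) and Rcc1 (0.982). Closest to Il2 was Lta (0.961), and closest to Lta were Slc25a33 (0.985), Ppif (0.971) and Slc19a1 (0.970). Tnf lay nearest to Il15ra (0.971), Csf2 to Nek8 (0.968) and Cish (0.964), Csf1 to Gdpd5 (0.954), Lif to Hivep3 (0.927), Il10 to Gnb4 (0.946) and Ltb to Txndc15 (0.954). Among pairs of tested members r ran from 0.464 (Il10 and Lta) to 0.961 (Il2 and Lta) outside Ltb, and pairs with Ltb ran from -0.575 (Lif) to -0.158 (Il10).

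Of 17 genes for receptors of the member cytokines, 16 were tested. At the late time point 4 rose and 4 fell against control, where 19.9% of all tested genes rose and 14.3% fell. At the mid time point 4 rose and 4 fell too, beside 17.5% and 11.8% of all genes. Il2ra, the high-affinity subunit of the interleukin 2 receptor, rose from 0.758 to 2.07 CPM in controls to 55.8 and 123 CPM in late liver (log2 fold change 6.47 ± 1.27, edgeR adjusted p = 0.00994). Il2rb, the shared interleukin 2 and interleukin 15 receptor subunit, rose by 2.07 (edgeR adjusted p = 0.00466) and Tnfrsf1b, the second tumor necrosis factor receptor, by 2.46 (edgeR adjusted p = 0.00312). Ifngr2, the signaling subunit of the interferon gamma receptor, fell by 3.33 on the log2 scale (edgeR adjusted p = 0.0176). Its levels were 84.0, 89.95 and 69.3 CPM in controls, 6.02, 13.6 and 3.60 in mid liver, and 5.13 and 7.75 in late liver, while Ifngr1 was not called. Csf2rb, a subunit of the GM-CSF receptor, and Csf2rb2, which was listed with it, fell by 4.34 and 3.41 on the log2 scale (edgeR adjusted p = 0.0136 and 0.0397). Csf2rb was at 9.97 and 8.27 CPM in control libraries 1 and 2, which were also the controls with the most Csf1r (190 and 32.5 CPM), and at 1.12 CPM in control library 3, so the part of myeloid cells in those falls was not tested. The list's median log2 fold change was -0.33 late and -0.38 mid, beside -0.04 and -0.07 over all genes.

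The 14 regulators of cytokine mRNA decay were all tested. At the late time point 4 rose and 3 fell, beside 19.9% and 14.3% of all tested genes. At the mid time point 4 rose and 4 fell, beside 17.5% and 11.8%. Zfp36, which encodes tristetraprolin, a protein that binds AU-rich elements and destabilizes transcripts such as Tnf, fell by 1.32 on the log2 scale (edgeR adjusted p = 0.0402), from 398, 164 and 293 CPM in controls to 56.3 and 131 CPM in late liver. That call was lost in 9 of 23 alternatives (adjusted p up to 0.321), which were the fits with no series term, with the 2 groups alone, with day 0 controls alone, and without control library 1 or 3, mid liver library 1 or 3, or either late liver library. Rc3h1 and Rc3h2, which encode the Roquin proteins, fell by 1.08 and 1.19 on the log2 scale (edgeR adjusted p = 0.0121 and 0.00721). Zc3h12d, a relative of the endonuclease gene Zc3h12a, rose by 1.51 (edgeR adjusted p = 0.00558), and Khsrp and Hnrnpd, which encode AU-rich element binding proteins, by 1.01 and 0.90 (edgeR adjusted p = 0.0164 and 0.0182). Khsrp and Hnrnpd were at 61.5 and 135 CPM in late liver library 1, inside their control ranges of 47.6 to 173 and 92.7 to 156 CPM.

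Of 22 other cytokine genes only 8 were tested, because the rest had too few counts. At both times 3 rose and 2 fell, beside 19.9% and 14.3% of all tested genes late and 17.5% and 11.8% mid. Spp1, encoding osteopontin, was at 0 to 0.861 CPM in controls, 53.2 to 78.4 in mid liver, and 174 and 342 in late liver (late log2 fold change 9.57 ± 1.78, edgeR adjusted p = 0.00872). Mif, macrophage migration inhibitory factor, rose by 2.22 (edgeR adjusted p = 0.0151) and Tgfb1, transforming growth factor beta 1, by 1.30 (edgeR adjusted p = 0.00897). Flt3l, a growth factor of dendritic cell precursors, fell by 1.42 on the log2 scale (edgeR adjusted p = 0.00593) and Il15, a survival factor of memory T cells and NK cells, by 2.70 (edgeR adjusted p = 0.0362). Il15 was at 3.60 CPM in control library 1, the library highest in myeloid markers, against 1.43 and 0.998 CPM in the other controls, and the part of those cells was not tested. Leaving out late liver library 2 left 0 calls in each of these 3 lists at the late time point. Of the 17 genes of these lists described above, Tnfrsf1b, Il2rb, Zc3h12d and Spp1 kept the late call without late liver library 1, and the others lost it.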

How the data were processed

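Low-input RNA libraries of sorted TCRTg101 were sequenced. The submitters' processing notes name bcl2fastq, kallisto and the builds mm10 and GRCm38, and their versions and the annotation indexed are not given in the sources used here. Files hold, for each transcript, the authors' estimated counts (expected counts) from kallisto, and the deposited TPM, which are scaled for transcript length and depth. Kallisto splits reads among similar transcripts. Without strand, reads of Il2 and of Adad1, which overlaps it on the other strand, cannot be told apart (Adad1 held at most 8 counts in a library).

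Transcripts were matched to GENCODE vM21 on GRCm38 (98.25% of transcripts and 98.998% to 99.287% of counts per run). Counts were summed over a gene's transcripts and a library's runs (26 runs, 15 libraries) and rounded. A gene was tested if 6 or more libraries held 10 or more of its counts. The study's methods can also be read as leaving out genes under 10 counts in 6 or more libraries, and that stricter filter (14149 genes, without Il2, Il10 and Csf2) was added as an alternative after the data were seen. edgeR 4.0.16 in R 4.3.3 fitted group and series to the 14 low-input libraries together (quasi-likelihood, robust, two-sided, TMM factors 0.723 to 1.22), with Benjamini-Hochberg adjustment over 15465 genes and a threshold of 0.05. Titles start with TG or XC, and this series served as the batch term, although the labels name no batch. Replicate numbers follow accession order. Depth was 22691255 to 70719703 counts per library, and a group held 1 to 3 libraries. Intervals are exact 95% intervals of a ratio of counts, and a library at 0 is given a floor of 3 counts. Both cover counting error only. Runs of 1 library gave member levels that differed by a median ratio of 1.08 and at most 1.37 (57 pairs with at least 30 counts).

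Genes named are the 10 members, the 3 genes most like each tested member (nearest only where fewer are given), and, from 3 further lists, up to 3 rising and 3 falling genes of largest size among those called in late liver versus control. Members, lists and markers were chosen with earlier results of these data known, and Il3 after its values were seen. Alternatives were DESeq2 1.42.0, RLE factors, no series term, no count filter, other sets of libraries, single runs, counts scaled from TPM and each replicate left out. The edgeR step was tested on simulated data. Plots were drawn with matplotlib 3.10.9 in Python 3.11.15, and tables used pandas 2.3.3 and scipy 1.17.1.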

Additional observations from a re-analysis of the deposited data

Results flagged for a closer look

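The library made with oligo-dT priming from day 0 cells stood outside every comparison, and Ifng, Csf1 and Csf2 were above all 3 low-input controls in it. The share of all genes above or below those controls in this library was not counted, so these values cannot be set against it. Ifng was at 3.95 CPM against 0.713 to 3.15 CPM in controls, Csf1 at 0.999 CPM against 0.626 to 0.861 CPM, and Csf2 at 0.116 CPM, from 2.7 estimated counts, against 0 to 0.108 CPM. With 1 such library there is no replicate error, and Csf2 is at the level that 3 counts would give. In the same library Ltb, at 435.9 CPM, and Lta, at 8.30 CPM, were below every low-input control (848 to 1016 and 10.6 to 17.9 CPM), and Ltb-203 took 0% of Ltb's counts there and 23.9% to 39.9% in the low-input libraries. The priming method and the library cannot be told apart.

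Il10 in the mid spleen library, at 0.0573 CPM (2 counts), was below every control, while all 3 mid liver libraries were above every control. The difference between mid liver and mid spleen was tested and did not pass (log2 difference 3.65 ± 1.82, edgeR adjusted p = 0.711), and pooled counts gave a ratio of 13.9 with a 95% exact interval of 3.76 to 117.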

How the results depend on the processing

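No paired analysis was possible because the labels give no replicate numbers that pair libraries. Members kept their direction in all but 10 of 1365 recomputed fold changes, and 1239 kept their side of the threshold too. A call was lost in 52 and gained in 64. These numbers include the comparisons in which no member was called at first, so many had no call to lose. Of 782 recomputed fold changes of the 17 listed genes with values, 135 lost the call and none reversed. Leaving out 1 library gave 0 to 8 members called for mid liver versus control and 0 to 6 for late liver versus control, 0 to 6 for early liver versus control, 0 to 5 for late liver versus undivided, and 0 for the other 3 comparisons. The whole table then had 0 to 5572, 0 to 6186, 0 to 1915 and 0 to 2027 genes called for the first 4 comparisons. Without the filter on low counts (32821 genes), members called were 6 for early liver versus control beside 1295 genes (3.95%), 3 for late versus mid liver beside 325 (0.99%), 2 for early spleen versus control beside 643 (1.96%), 7 for mid liver versus mid spleen beside 756 (2.3%) and 6 for late liver versus undivided beside 2218 (6.76%). DESeq2 called 4 for early liver versus control beside 409 genes and 5 for late liver versus undivided beside 1947. Leaving out the whole early liver group gave 5 for late liver versus undivided beside 2006 genes. With the stricter filter, 6 members were tested, of which 5 were called for mid and 3 for late liver versus control, beside 32.1% and 37.2% of genes, and the 3 members no longer tested account for the smaller counts. These last 2 alternatives were chosen after seeing the data. Without the series term 1764 genes were called for mid liver and 2936 for late liver versus control, in place of 4526 and 5291. The reversed fold changes were all of uncalled differences. For early spleen versus control, Ltb was at -0.122 with no series term and -0.0026 with the libraries of the 2 groups alone, and from -0.0682 (without early spleen library 2) to 0.1744 (without early spleen library 1) over the libraries left out, also turning to -0.0226 without control library 1. Ifng ran there from -0.93 to 2.51 (without early spleen libraries 1 and 2 in turn) and Lif from -1.23 to 2.68 (without libraries 2 and 1). Late versus mid liver ran from -0.1448 to 0.3182 for Ltb (without late liver libraries 1 and 2) and from -0.6069 to 2.35 for Csf2 (without libraries 2 and 1). Lta in late liver versus undivided ran from -0.1836 to 1.64 (without late liver libraries 1 and 2), and Csf1 in early liver versus control from -0.4774 to 2.01 (without early liver libraries 1 and 2), called in the latter case. The cause was not tested in any of these cases. RLE factors shifted libraries by at most 0.087 on the log2 scale. The fit of late liver and undivided libraries alone left no residual degrees of freedom and was not run. Members under 1 CPM in controls are limited by depth there.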

Other observations

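Il3, chosen after its values were seen, was among the other cytokine genes but had too few libraries with counts to be tested. It encodes interleukin 3, a growth factor of mast cells and myeloid progenitors. Il3 was at 0 CPM in the 3 controls, the undivided library, the mid spleen library and early spleen library 1. It was at 32.8, 10.9 and 7.81 CPM in mid liver libraries 1 to 3, at 6.93 and 0 CPM in late liver libraries 1 and 2, and at 11.3 and 0.200 CPM in early liver libraries 1 and 2. The libraries highest and lowest in Il3 among those of liver were thus also the highest and lowest in Il2, at 55.9 and 0.577 CPM.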
